A study of Homo sapiens with 9 samples.

Results

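Integrins are the cell's main receptors for the extracellular matrix, and laminins are basement membrane proteins that several of them bind. All protein-coding genes named as integrin alpha subunits, integrin beta subunits or laminin chains were taken from the deposited tables by symbol, which gave 38 of 58735 genes. They were 18 integrin alpha subunits, 8 integrin beta subunits, 5 laminin alpha chains, 4 laminin beta chains and 3 laminin gamma chains. The symbol rule itself used no measured value, but it was set with earlier results of these data known. Their mRNA was followed in 9 RNA sequencing libraries of Huh-7 cells, a human hepatoma line.

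The libraries fell into 3 groups of 3: control Huh-7 cells, Ako-3 cells and Mko-3 cells. Ako-3 was 1 Huh-7 clone in which APOB was cut in an exon by CRISPR/Cas9 with several guide RNAs delivered as ribonucleoprotein. Mko-3 was 1 Huh-7 clone made earlier, in which MTTP was disrupted. APOB encodes apolipoprotein B, the structural protein of hepatic lipoproteins, and MTTP encodes the transfer protein that loads it with lipid. All 3 groups were grown in DMEM with fetal bovine serum until nearly confluent, washed, and held overnight in medium without serum before RNA was taken. The comparisons asked which transcripts differed when a cell line could not assemble these lipoproteins. Since each knockout was 1 clone, a difference between clones and the effect of the lost gene cannot be told apart, and p-values measure the spread between libraries of the same cells.

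An integrin is a heterodimer of 1 alpha and 1 beta subunit, and the pair decides the ligand: fibronectin, vitronectin, collagen or laminin. Its short cytoplasmic tails connect through adaptors such as talin and kindlin to actin. A laminin is a cross-shaped heterotrimer of an alpha, a beta and a gamma chain, which polymerises into the sheet on which a basement membrane is built. In liver, hepatocytes lack a continuous basement membrane, and liver tumour cells are known to make more integrin and laminin than hepatocytes do.

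The libraries held between 14638727 and 20179760 counts, of which the 38 genes took 0.324% to 0.398%. APOB stood at 87.5 ± 6.11 FPKM (SD, n = 3) in Ako-3 cells and 224 ± 40.5 in control cells, and MTTP at 16.0 ± 0.656 in Mko-3 cells and 116 ± 5.24 in control cells. FPKM is the fragment count of a gene over its length and over the library size, as the authors scaled it. All 8 hepatocyte markers had a mean above 1 FPKM. They summed to 4861 to 5020 FPKM in control, 5558 to 5795 in Ako-3 and 4800 to 5013 in Mko-3 libraries. All but FGB (77.5 and 71.1 FPKM) had a higher mean in Ako-3 than in control cells. Among them were APOA1 (637 and 910), TF (90.3 and 149) and HNF4A (64.0 and 104). Within this sum markers moved in opposite directions between control and Mko-3 cells. Means were lower in Mko-3 cells for ALB (2547 and 1833 FPKM), APOA1 (637 and 476) and SERPINA1 (439 and 430). That of AFP was higher (1050 and 1840), as were those of TTR, TF, FGB and HNF4A. None of the 7 fibroblast or stellate cell markers had a mean above 1 FPKM over the 9 libraries, and DCN and THY1 had at most 3 counts in every library. The 4 biliary markers summed to 31.8 to 37.9 FPKM in control, 52.2 to 57.7 in Ako-3 and 98.6 to 105 in Mko-3 libraries, with KRT7 at most at 3 counts throughout. EPCAM (means of 31.6, 50.1 and 71.9 FPKM) and KRT19 (3.99, 5.64 and 30.5) made up nearly all of the biliary sum. CFTR did not rise, with 0.0717, 0.0548 and 0.0706. The part of these markers in the results was not tested. In bulk RNA, fewer cells that express a gene and less RNA per cell cannot be told apart.

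Levels of the members spread widely, as the plot of members by library shows. Over the 9 libraries, 9 members had a mean above 10 FPKM, 8 lay between 1 and 10, 6 between 0.1 and 1, and 15 at or below 0.1. Thus 17 members (44.7%) were above 1 FPKM, against 53.8% of the 19951 protein-coding genes. ITGA8, a partner of ITGB1 for nephronectin, and LAMA1, the chain of the embryonic laminin, had no count in any library. In all, 4 members had at most 3 counts in every library. Among them was ITGA3, the alpha subunit of a laminin receptor common in epithelia, with 0 to 3 counts.

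**Figure D1:**
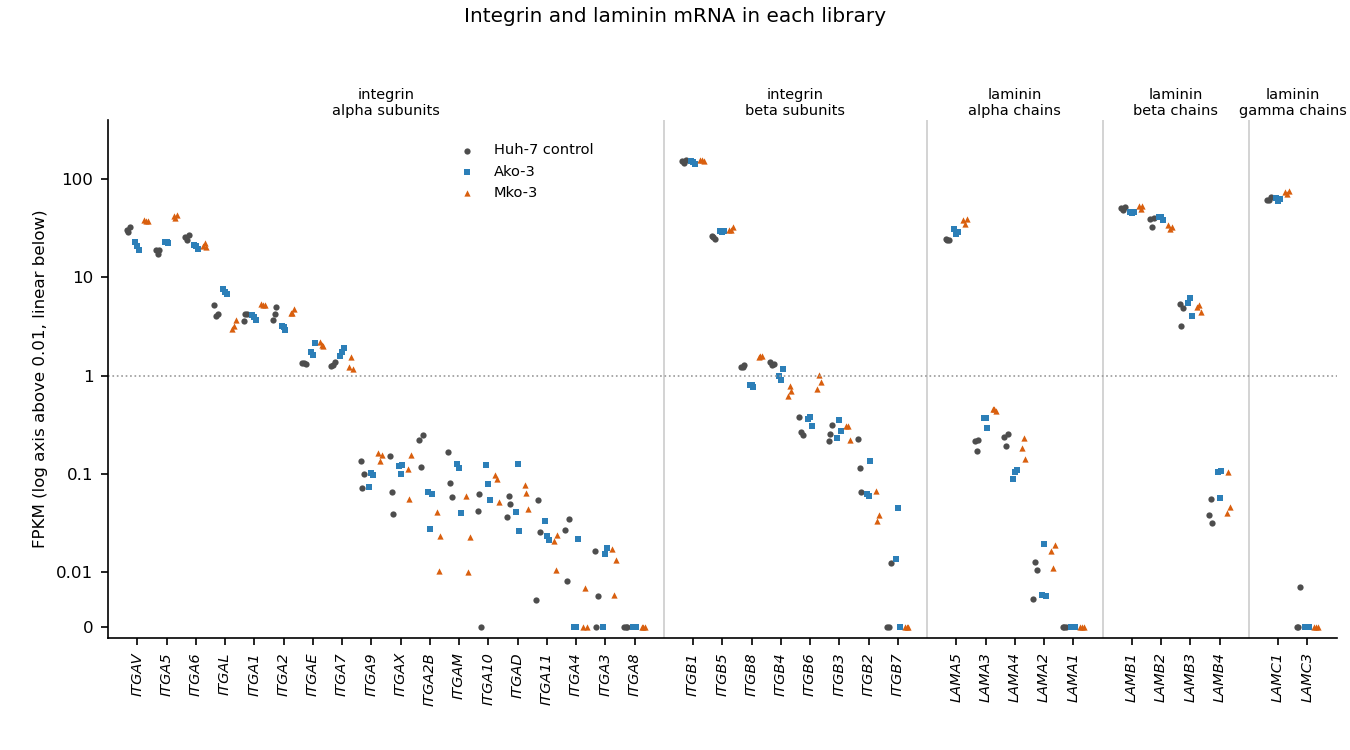
FPKM of integrin and laminin genes (vertical axis, logarithmic above 0.01 and linear below) in the 3 control, 3 Ako-3 and 3 Mko-3 libraries, 1 symbol per library, ordered within each class by mean level. The dotted line marks 1 FPKM, which 17 members exceed on average. ITGB1 is the highest, and ITGA8 and LAMA1 lie at 0 throughout.

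ITGB1 is the common beta subunit, shared by most matrix-binding integrins. It was the highest member and ranked 174 among protein-coding genes by mean FPKM. Its FPKM was 153, 148 and 156 in control libraries, 154, 148 and 144 in Ako-3 libraries, and 155, 157 and 155 in Mko-3 libraries. The control libraries overlapped those of both clones. The log2 fold change was -0.04 (SE 0.06, adjusted p = 0.60) in Ako-3 and 0.02 (SE 0.05, adjusted p = 0.82) in Mko-3 cells.

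The next most abundant beta subunits differed modestly. ITGB5, which pairs with ITGAV to bind vitronectin, measured 26.2, 26.0 and 24.3 FPKM in control, 29.4, 29.1 and 29.3 in Ako-3, and 30.4, 30.2 and 32.3 in Mko-3 libraries. Every library of either clone lay above every control library. ITGB5 rose by 0.20 on the log2 scale in Ako-3 (SE 0.06, adjusted p = 0.01) and by 0.27 in Mko-3 cells (SE 0.06, adjusted p = 7.7e-04). The clones differed by 0.07 (SE 0.04, adjusted p = 0.17), which did not pass the test.

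Among alpha subunits, 3 stood above 10 FPKM: ITGAV, ITGA5 and ITGA6. ITGAV, the vitronectin receptor subunit, and ITGA5, the fibronectin receptor subunit, recognise ligands with an Arg-Gly-Asp motif, and ITGA6 binds laminins. In control cells their order was ITGAV at 30.7 ± 1.76 FPKM, ITGA6 at 25.5 ± 1.56 and ITGA5 at 18.4 ± 0.948 (SD, n = 3). The order changed in the clones, where ITGA5 came first: 22.6 ± 0.260 against 20.9 ± 2.17 for ITGAV and 20.6 ± 1.00 for ITGA6 in Ako-3, and 41.8 ± 1.24 against 37.6 ± 0.476 and 21.2 ± 1.05 in Mko-3 cells. In Ako-3 cells, ITGAV and ITGA6 did not differ beyond their spread, and the highest ITGAV library exceeded the ITGA5 libraries.

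Among laminin chains 4 were abundant: LAMC1 at 63.0 ± 2.59 FPKM in control cells, LAMB1 at 50.5 ± 1.66, LAMB2 at 37.3 ± 4.02 and LAMA5 at 24.4 ± 0.449 (SD, n = 3). LAMC1 is the gamma chain of most laminins, LAMB1 and LAMB2 are alternative beta chains, and LAMA5 is the widespread alpha chain of adult epithelial basement membranes. LAMB3, the beta chain of the epidermal laminin, was present at 4.49 ± 1.11 FPKM. Its alpha chain partner there, LAMA3 at 0.201 ± 0.0277 FPKM, was far lower.

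A member was called where its log2 fold change was at least 1 in either direction and its adjusted p at most 0.05, the thresholds of the study, by edgeR (quasi-likelihood F test), with p adjusted by Benjamini-Hochberg over all genes tested. In Ako-3 against control cells, 26 of 38 members had enough counts to be tested. None was called higher and 2 were called lower, ITGA2B and LAMA4, where 3.52% of all 15787 genes tested were called higher and 5.00% lower. By the adjusted p alone 7 members were higher, 7 lower and 12 did not pass, against 25.5% higher and 24.4% lower over all genes. An unadjusted p under 0.05 was reached by 7 higher and 8 lower members, and DESeq2 called 2 lower and none higher. The share of all genes at that unadjusted p was not counted. The tested members had a median log2 fold change of -0.03, against -0.01 for all genes. The 3 libraries of a group did not overlap those of the other for 15 of the 26 members, and for 57.6% of all genes tested.

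In Mko-3 against control cells, 25 members were tested. ITGA5, ITGB6 and LAMA3 were called higher and ITGA2B lower, where 3.82% of 15745 genes were called higher and 7.22% lower. By adjusted p alone 10 members were higher and 5 lower, against 26.9% and 27.1% of all genes. The members' median log2 fold change was 0.21 and that of all genes -0.01. The groups did not overlap for 15 members, and for 60.7% of all genes.

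Set directly against each other, the clones allowed a test of 25 members in Mko-3 relative to Ako-3 cells, of which ITGB6 was called higher and ITGAL lower. Over all 15528 genes 2.26% were called higher and 3.47% lower. By adjusted p alone 11 members were higher and 4 lower, against 21.1% and 20.6% of all genes. The members' median was 0.17, and 18 members did not overlap between the clones, as did 49.8% of all genes. These 3 comparisons share libraries, so their values stand side by side only.

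**Figure D2:**
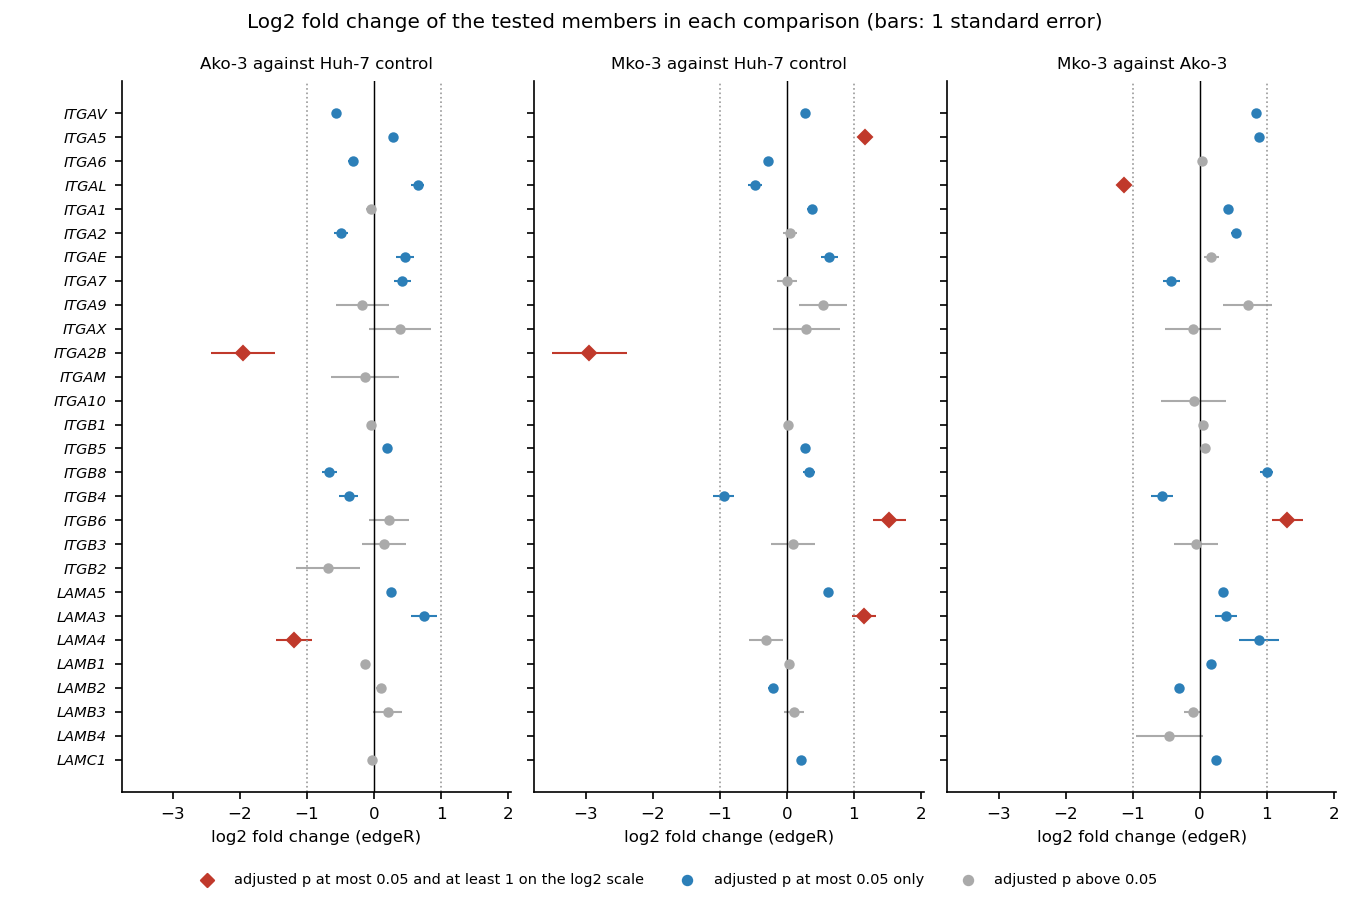
Log2 fold change with 1 standard error from edgeR (horizontal axis) of members tested in Ako-3 against control cells, Mko-3 against control cells and Mko-3 against Ako-3 cells. Red diamonds mark called members, blue circles an adjusted p of at most 0.05 alone, grey circles the rest, and dotted lines a log2 fold change of 1. ITGA2B and LAMA4 are the called members in the left panel, and ITGA5, ITGB6, LAMA3 and ITGA2B in the middle one.

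Among receptor subunits, ITGA5 showed the most abundant called change. Its FPKM was 19.1, 17.3 and 18.9 in control libraries, 22.7, 22.8 and 22.3 in Ako-3 libraries and 42.3, 40.4 and 42.7 in Mko-3 libraries. No 2 groups overlapped, and the Mko-3 libraries stood apart from the rest. ITGA5 rose by 1.17 on the log2 scale in Mko-3 cells (SE 0.06, adjusted p = 2.9e-12), a 2.25-fold difference, and by 0.29 in Ako-3 cells (SE 0.06, adjusted p = 7.1e-04). The clones differed by 0.88 (SE 0.04, adjusted p = 5.6e-30). Leaving out each library in turn gave 1.14 to 1.20 for Mko-3 against control cells.

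ITGAV moved in opposite directions in the clones. It read 30.6, 29.1 and 32.6 FPKM in control libraries, 23.1, 20.8 and 18.8 in Ako-3 libraries and 38.0, 37.1 and 37.7 in Mko-3 libraries. All Ako-3 libraries were below, and all Mko-3 libraries above, every control library. On the log2 scale ITGAV fell by 0.56 in Ako-3 (SE 0.07, adjusted p = 2.5e-06) and rose by 0.28 in Mko-3 cells (SE 0.06, adjusted p = 5.4e-04). The difference between the clones was 0.84 (SE 0.05, adjusted p = 3.5e-19).

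ITGB8, a partner of ITGAV in binding latent TGF-beta, had the same pattern at a lower level. It measured 1.23, 1.21 and 1.29 FPKM in control, 0.808, 0.794 and 0.760 in Ako-3, and 1.56, 1.58 and 1.60 in Mko-3 libraries. The groups were separate. ITGB8 fell by 0.67 in Ako-3 (SE 0.11, adjusted p = 3.1e-05) and rose by 0.33 in Mko-3 cells (SE 0.09, adjusted p = 5.0e-03). Between the clones it differed by 0.997 (SE 0.10, adjusted p = 1.6e-14), just below the threshold of 1, so that it was called in 3 of the 6 fits that left out a library.

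ITGB6, another partner of ITGAV for latent TGF-beta and normally restricted to epithelia, was low in every library. Its counts were 33, 19 and 21 in control, 28, 35 and 25 in Ako-3, and 61, 84 and 62 in Mko-3 libraries, or 0.295 ± 0.0693, 0.347 ± 0.0364 and 0.867 ± 0.141 FPKM (SD, n = 3). The Mko-3 libraries lay above all others, and control and Ako-3 libraries overlapped. ITGB6 rose by 1.53 in Mko-3 against control cells (SE 0.25, adjusted p = 2.4e-05) and by 1.31 against Ako-3 cells (SE 0.23, adjusted p = 2.2e-06). In Ako-3 cells the value was 0.22 (SE 0.30, adjusted p = 0.56).

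ITGAL, the alpha subunit of the leukocyte integrin LFA-1, was expressed at a few FPKM. It read 5.24, 4.05 and 4.26 in control, 7.52, 7.07 and 6.81 in Ako-3, and 3.01, 3.17 and 3.67 in Mko-3 libraries. The groups did not overlap, with Ako-3 highest and Mko-3 lowest. ITGAL rose by 0.65 in Ako-3 (SE 0.09, adjusted p = 7.9e-06), fell by 0.48 in Mko-3 (SE 0.11, adjusted p = 7.5e-04), and differed by -1.13 between the clones (SE 0.08, adjusted p = 1.5e-21). Its beta partner ITGB2 had only 29, 12 and 8 counts in control, 7, 8 and 16 in Ako-3, and 8, 4 and 4 in Mko-3 libraries. Of 6 leukocyte markers, PTPRC, CD3E, MS4A1 and SPI1 had at most 3 counts in every library. The 6 summed to 2.70 to 3.69 FPKM in control, 5.17 to 5.81 in Ako-3 and 3.24 to 4.38 in Mko-3 libraries. CD14 made up nearly all of this sum, with means of 3.12, 5.49 and 3.87 FPKM. It was highest in Ako-3 cells, as ITGAL was, but higher in Mko-3 than in control cells, where ITGAL was lower. Their part in the ITGAL values was not tested.

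ITGA2B, the alpha subunit of the platelet fibrinogen receptor, was called lower in both clones from very few counts. They were 23, 10 and 25 in control, 6, 3 and 6 in Ako-3, and 4, 1 and 2 in Mko-3 libraries. Each library of either clone was below each control library. The log2 fold change was -1.95 (SE 0.48, adjusted p = 2.0e-03) in Ako-3 and -2.95 (SE 0.56, adjusted p = 1.3e-04) in Mko-3 cells. From the 15 counts in Ako-3 and 58 in control cells the ratio scaled by library size was 0.251 (95% exact binomial interval 0.132 to 0.448), and from 7 counts in Mko-3 cells 0.124 (0.0477 to 0.272). The intervals cover counting error only. Of 5 platelet or megakaryocyte markers, PF4, PPBP, GP9 and GP6 had at most 3 counts in every library, and the sum was 0.655 to 1.16 FPKM in control, 0.321 to 0.600 in Ako-3 and 0.310 to 0.880 in Mko-3 libraries. GP1BA made up nearly all of this sum, with means of 0.861, 0.494 and 0.531 FPKM. The part of these markers in the ITGA2B values was not tested. ITGB3, the partner of ITGA2B, lay between 0.218 and 0.354 FPKM in all libraries and passed no test. With 10 counts required in every library, ITGA2B left the test.

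**Figure D3:**
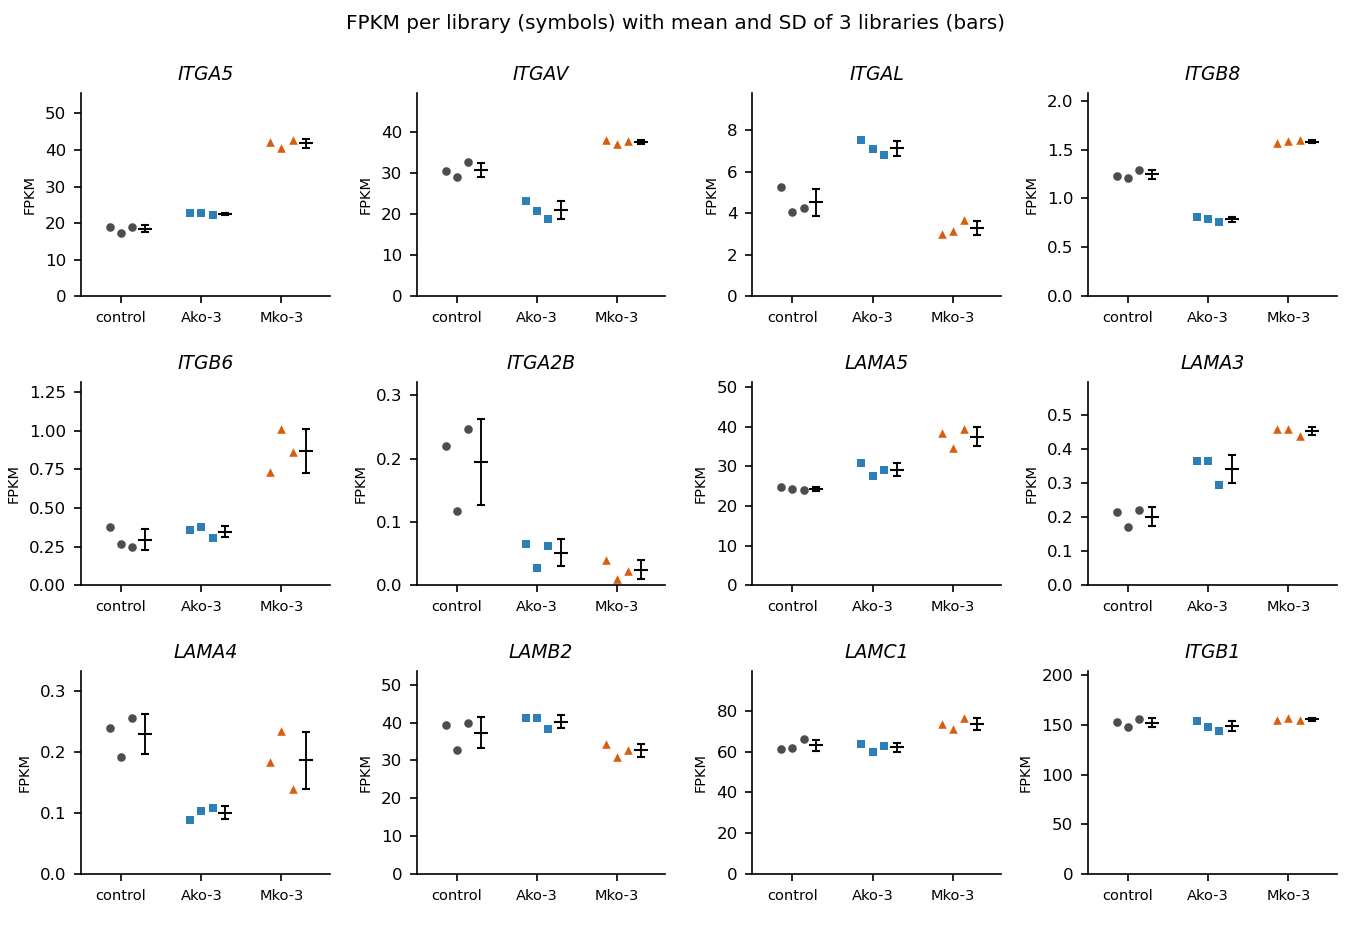
FPKM in each of 3 libraries per group (symbols, left to right replicates 1 to 3) with the group mean and SD (bars) for 12 members; each vertical axis starts at 0 and has its own scale. ITGA5, ITGB6, LAMA3 and LAMA5 are highest in Mko-3 cells, ITGAV and ITGB8 are lowest in Ako-3 and highest in Mko-3 cells, ITGAL has the reverse order, and ITGB1 overlaps between control cells and each clone.

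ITGA6 and ITGB4, which together form a laminin receptor, fell in both clones. ITGA6 read 26.0, 23.8 and 26.8 FPKM in control, 21.5, 20.7 and 19.5 in Ako-3, and 20.8, 22.4 and 20.4 in Mko-3 libraries, with both clones below control cells and overlapping each other. It fell by 0.32 in Ako-3 (SE 0.07, adjusted p = 4.9e-04) and by 0.28 in Mko-3 cells (SE 0.07, adjusted p = 1.1e-03). ITGB4, the beta subunit that joins ITGA6 in hemidesmosomes, was at 1.32 ± 0.0456 FPKM in control, 1.02 ± 0.141 in Ako-3 and 0.694 ± 0.0811 in Mko-3 cells (SD, n = 3). No 2 groups overlapped, and ITGB4 fell by 0.38 in Ako-3 (SE 0.15, adjusted p = 0.035) and by 0.94 in Mko-3 cells (SE 0.15, adjusted p = 2.6e-05). ITGA7, the laminin receptor subunit of muscle, differed in this: it rose by 0.42 in Ako-3 cells (SE 0.13, adjusted p = 0.01), and its value in Mko-3 cells was 0.00 (SE 0.14, adjusted p = 0.99).

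The collagen receptor subunits ITGA1 and ITGA2 changed in 1 clone each. ITGA1 was at 4.03 ± 0.361 FPKM in control, 3.90 ± 0.237 in Ako-3 and 5.26 ± 0.117 in Mko-3 cells (SD, n = 3) and rose by 0.37 in Mko-3 cells (SE 0.07, adjusted p = 1.8e-04). ITGA2 was at 4.30 ± 0.665, 3.07 ± 0.133 and 4.48 ± 0.200 FPKM and fell by 0.49 in Ako-3 cells (SE 0.10, adjusted p = 5.1e-04). Between the clones both were higher in Mko-3 cells, by 0.42 (SE 0.05, adjusted p = 4.5e-10) and 0.54 (SE 0.08, adjusted p = 1.2e-08). ITGAE, the subunit that binds E-cadherin, rose by 0.46 in Ako-3 (SE 0.13, adjusted p = 7.0e-03) and by 0.64 in Mko-3 cells (SE 0.12, adjusted p = 1.3e-04).

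Among laminin alpha chains, LAMA5 rose in both clones. Its FPKM was 24.9, 24.2 and 24.0 in control, 30.8, 27.7 and 29.1 in Ako-3, and 38.4, 34.7 and 39.5 in Mko-3 libraries, with the 3 groups separate. It rose by 0.26 in Ako-3 (SE 0.06, adjusted p = 1.3e-03) and by 0.61 in Mko-3 cells (SE 0.06, adjusted p = 3.0e-08), and the clones differed by 0.36 (SE 0.04, adjusted p = 7.1e-11).

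LAMA3, the alpha chain of the epidermal laminin, had 59, 38 and 59 counts in control, 89, 107 and 75 in Ako-3, and 120, 119 and 99 in Mko-3 libraries. In FPKM the means were 0.201 ± 0.0277, 0.341 ± 0.0421 and 0.451 ± 0.0117 (SD, n = 3), with no overlap between groups. LAMA3 rose by 1.14 in Mko-3 cells (SE 0.18, adjusted p = 1.5e-05) and by 0.75 in Ako-3 cells (SE 0.20, adjusted p = 3.2e-03), and differed by 0.39 between the clones (SE 0.16, adjusted p = 0.041).

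LAMA4, the alpha chain of vascular and mesenchymal basement membranes, had 52, 34 and 54 counts in control, 17, 24 and 22 in Ako-3, and 38, 48 and 25 in Mko-3 libraries. All Ako-3 libraries lay below the others, while control and Mko-3 libraries overlapped. LAMA4 fell by 1.19 in Ako-3 cells (SE 0.27, adjusted p = 1.1e-03) and was at -0.31 in Mko-3 cells (SE 0.25, adjusted p = 0.31). It was 0.88 higher in Mko-3 than in Ako-3 cells (SE 0.30, adjusted p = 0.013). The 5 endothelial markers summed to 9.86 to 11.3 FPKM in control, 13.5 to 14.6 in Ako-3 and 7.30 to 7.97 in Mko-3 libraries, with KDR and TEK at 0 counts in each and VWF at most at 5. PECAM1 made up most of this sum, with means of 9.91, 13.4 and 6.53 FPKM, while CDH5 had 0.839, 0.685 and 1.06 and was lowest in Ako-3 cells, as LAMA4 was. Their part in the LAMA4 values was not tested.

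The beta and gamma chains moved less. LAMB1 read 50.5, 48.9 and 52.2 FPKM in control, 46.7, 45.7 and 46.3 in Ako-3, and 53.3, 49.8 and 53.8 in Mko-3 libraries. Its log2 fold changes against control cells were -0.13 (SE 0.06, adjusted p = 0.065) in Ako-3 and 0.04 (SE 0.06, adjusted p = 0.60) in Mko-3 cells, neither past the test, and the clones differed by 0.17 (SE 0.04, adjusted p = 2.0e-04). LAMB2 went the other way between the clones. It read 39.4, 32.7 and 39.9 FPKM in control, 41.1, 41.3 and 38.3 in Ako-3, and 34.4, 31.0 and 32.7 in Mko-3 libraries, where control replicate 2 was as low as the Mko-3 libraries. LAMB2 fell by 0.20 in Mko-3 cells (SE 0.07, adjusted p = 0.022), was at 0.10 in Ako-3 cells (SE 0.07, adjusted p = 0.26), and was lower in Mko-3 than in Ako-3 cells by -0.31 (SE 0.04, adjusted p = 8.9e-09).

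LAMC1 read 61.1, 61.9 and 65.9 FPKM in control, 63.8, 59.7 and 62.5 in Ako-3, and 73.3, 70.9 and 76.6 in Mko-3 libraries. The Mko-3 libraries were above all others, and the other groups overlapped. LAMC1 rose by 0.21 in Mko-3 cells (SE 0.06, adjusted p = 4.0e-03) and was at -0.03 in Ako-3 cells (SE 0.06, adjusted p = 0.74). LAMB3 passed no test, and its log2 fold changes were 0.20 in Ako-3 and 0.10 in Mko-3 cells.

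To see which heterodimers and heterotrimers the mRNA could supply, each member was expressed as a share of the summed FPKM of its class, a measure per length that does not depend on library scaling. ITGB1 made up 84.1 ± 0.778% of beta subunit FPKM in control, 82.4 ± 0.535% in Ako-3 and 81.9 ± 0.564% in Mko-3 cells (SD, n = 3). ITGB5 took most of the rest, 14.1 ± 0.758%, 16.2 ± 0.442% and 16.3 ± 0.612%. The alpha subunits shifted more. ITGA5 had 20.3 ± 0.487% of alpha subunit FPKM in control, 27.5 ± 1.02% in Ako-3 and 35.6 ± 0.808% in Mko-3 cells. ITGA6 went from 28.1 ± 0.358% in control to 25.0 ± 0.162% in Ako-3 and 18.0 ± 1.02% in Mko-3 cells. ITGAV had 33.8 ± 0.455%, 25.4 ± 1.47% and 32.0 ± 0.222%, and ITGAL 4.97 ± 0.663%, 8.67 ± 0.0720% and 2.79 ± 0.287%. For these 4 alpha subunits no 2 groups overlapped, and each two-sided exact permutation test gave p = 0.1, the smallest value that 3 against 3 libraries allow. The summed FPKM of alpha subunits itself was 90.8 ± 4.60 in control, 82.3 ± 3.79 in Ako-3 and 118 ± 0.824 in Mko-3 cells, while that of beta subunits was 181 ± 3.90, 181 ± 5.11 and 190 ± 1.37. With unequal sums, a share can fall without a lower level. ITGA6 stood at 20.6 FPKM in Ako-3 and 21.2 in Mko-3 cells, and ITGAV at 30.7 in control and 37.6 in Mko-3 cells.

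For laminins, LAMA5 made up 98.2 ± 0.236% of alpha chain FPKM in control, 98.5 ± 0.186% in Ako-3 and 98.3 ± 0.248% in Mko-3 cells (SD, n = 3). The beta chains were the ones that were mixed. LAMB1 had 54.8 ± 2.46% in control, 50.4 ± 1.59% in Ako-3 and 58.2 ± 0.896% in Mko-3 cells, and LAMB2 40.4 ± 1.57%, 43.8 ± 0.551% and 36.3 ± 0.661%. The clones did not overlap in either share (two-sided exact permutation p = 0.1, the smallest possible). Summed laminin alpha FPKM was 24.8 ± 0.452 in control, 29.6 ± 1.57 in Ako-3 and 38.2 ± 2.44 in Mko-3 cells, below the beta chain sums of 92.4 ± 6.57, 91.8 ± 2.65 and 90.0 ± 3.48.

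**Figure D4:**
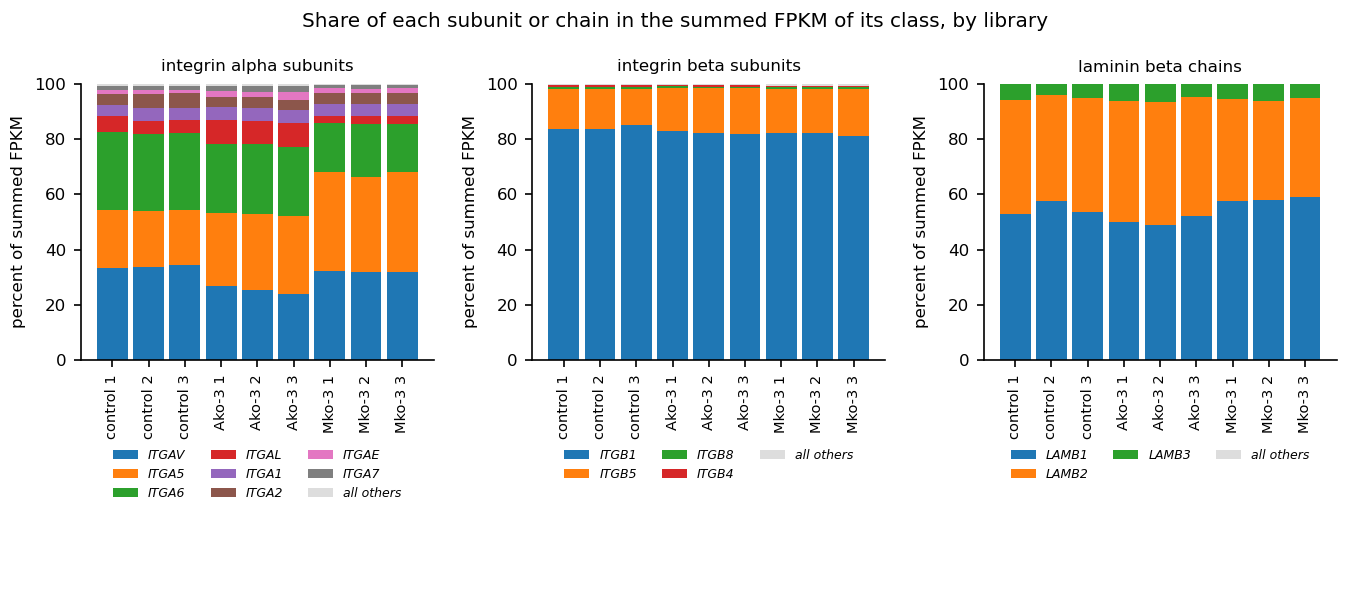
Percent of the summed FPKM of integrin alpha subunits, integrin beta subunits and laminin beta chains held by each gene (stacked bars), 1 bar per library. ITGA5 widens from control to Ako-3 to Mko-3 cells as ITGA6 narrows, ITGB1 holds over 80% of the beta subunits throughout, and LAMB1 and LAMB2 share the laminin beta chains.

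The clones were then set side by side over the 23 members tested in all 3 comparisons. The same direction past the adjusted p was seen in both clones for 7 members: ITGA5, ITGAE, ITGB5, LAMA3 and LAMA5 rose, and ITGA6 and ITGB4 fell. Opposite directions past the adjusted p were seen for 3, ITGAV, ITGB8 and ITGAL, and for each of them the direct test between the clones also passed. Over all genes tested, 49.9% passed the adjusted p in Ako-3 and 54.0% in Mko-3 cells. The shares of all genes with the same or opposite directions in both clones were not counted. The difference between the clones passed for 15 of the 23. These 15 were also all that passed among the 25 members tested between the clones, against 41.6% of the 15528 genes tested there. Both clones were compared with the same control libraries, so their values against control cells are not independent.

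Of the remaining members, ITGA9, ITGAX and ITGB3 were tested in all comparisons and passed none. ITGA10, ITGAM, ITGB2 and LAMB4 had enough counts for 1 comparison each in the main fits and did not pass it. Those never tested were ITGA3, ITGA4, ITGA8, ITGA11, ITGAD, ITGB7, LAMA1, LAMA2 and LAMC3, among them the leukocyte homing subunits ITGA4 and ITGB7. Their highest count in a library was 11, in ITGAD.

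The genes that work with integrins and laminins were read from 4 lists. Among 43 adaptors and kinases, which link the integrin tail to actin and signalling, 38 were tested, with 2 called higher and 1 lower in Ako-3, 2 higher and 2 lower in Mko-3, and none higher (14 at an unadjusted p under 0.05) and 2 lower in Mko-3 against Ako-3 cells. DESeq2 gave the same counts. Over all genes the shares called higher and lower were 3.52% and 5.00% in Ako-3, 3.82% and 7.22% in Mko-3, and 2.26% and 3.47% between the clones, and these apply to the lists that follow too. By adjusted p alone 49.9% of all genes passed in Ako-3, 54.0% in Mko-3 and 41.6% between the clones. For no list was the share of all genes at an unadjusted p under 0.05 counted beside it. Median log2 fold changes of the tested adaptors and kinases were 0.00, 0.11 and 0.02. TLN1, talin, which activates integrins, was at 72.0 ± 3.73 FPKM in control cells (SD, n = 3) and rose by 0.30 in Ako-3 (SE 0.06, adjusted p = 2.8e-04) and 0.16 in Mko-3 cells (SE 0.06, adjusted p = 0.022). PTK2, focal adhesion kinase, was at 0.00 in Ako-3 cells (SE 0.06, adjusted p = 0.96) and fell by 0.23 in Mko-3 cells (SE 0.06, adjusted p = 4.3e-03). ILK, the integrin-linked kinase, was listed at only 0.780 ± 0.0669 FPKM in control cells and passed no test. Whether ILK or other listed genes share exonic bases with other genes was not checked.

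The called adaptors were FLNA, APBB1IP and 3 KANK proteins, which bind talin at the rim of focal adhesions. FLNA, filamin A, which crosslinks actin and binds beta tails, rose by 1.28 in Mko-3 (SE 0.09, adjusted p = 2.3e-08), from a mean of 43.6 to 107 FPKM, and by 0.56 in Ako-3 cells (SE 0.08, adjusted p = 2.6e-05). KANK2 rose by 1.13 in Ako-3 (SE 0.08, adjusted p = 1.0e-09) and by 1.15 in Mko-3 cells (SE 0.08, adjusted p = 2.4e-10). KANK3 fell by 1.02 in Ako-3 (SE 0.14, adjusted p = 6.4e-06) and by 2.85 in Mko-3 cells (SE 0.17, adjusted p = 2.2e-11), from 4.78 ± 0.897 FPKM in control to 2.37 ± 0.335 and 0.669 ± 0.0901. In Ako-3 cells the call of KANK3 was lost in 3 of the 6 fits without 1 library, those without control replicate 1 (-0.86), Ako-3 replicate 1 (-0.996) or Ako-3 replicate 3 (-0.92). KANK4 fell by 1.11 in Mko-3 cells (SE 0.09, adjusted p = 4.2e-09), and was at -0.996 without Mko-3 replicate 3. APBB1IP, which recruits talin to integrins, rose by 1.52 in Ako-3 cells (SE 0.10, adjusted p = 3.5e-10), with 0.34 in Mko-3 cells (SE 0.10, adjusted p = 8.4e-03).

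Among 29 integrin ligands outside the laminins, 20 were tested in Ako-3 and 22 in Mko-3 cells. None was called higher (6 at an unadjusted p under 0.05) and 2 lower in Ako-3, 2 higher and 4 lower in Mko-3, and 2 higher and 2 lower between the clones, with medians of -0.14, -0.01 and 0.22 and the same counts by DESeq2. Ligand levels ranged widely, from SPP1 and MFGE8 below 1 FPKM in control cells to FN1 and VTN. FN1, fibronectin, was at 287 ± 33.4 FPKM in control, 278 ± 9.91 in Ako-3 and 322 ± 5.14 in Mko-3 cells (SD, n = 3), with -0.05 (SE 0.07, adjusted p = 0.59) in Ako-3 and 0.15 (SE 0.07, adjusted p = 0.062) in Mko-3 cells. VTN, vitronectin, was at 394 ± 25.8, 603 ± 32.7 and 554 ± 18.8 FPKM and rose by 0.61 in Ako-3 (SE 0.06, adjusted p = 1.2e-07) and 0.48 in Mko-3 cells (SE 0.06, adjusted p = 7.2e-07).

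Called ligands included SPP1, osteopontin, with 13, 7 and 14 counts in control, 1, 2 and 8 in Ako-3, and 85, 83 and 80 in Mko-3 libraries. It rose by 2.89 in Mko-3 against control cells (SE 0.26, adjusted p = 1.0e-08). FGG, the fibrinogen gamma chain, fell by 1.25 in Mko-3 cells (SE 0.07, adjusted p = 4.8e-12), and LTBP1, which holds latent TGF-beta, rose by 1.11 (SE 0.09, adjusted p = 3.4e-09). The called ligands of Ako-3 cells were called lower in both clones. MFGE8, a ligand of ITGAV integrins, was at -1.18 in Ako-3 (SE 0.20, adjusted p = 5.6e-05) and -1.48 in Mko-3 cells (SE 0.20, adjusted p = 2.3e-06). MADCAM1, an integrin ligand in leukocyte homing, was at -1.14 (SE 0.28, adjusted p = 1.9e-03) and -1.49 (SE 0.34, adjusted p = 8.9e-04). Between the clones THBS1, thrombospondin, was higher by 1.22 (SE 0.06, adjusted p = 2.7e-27) and NPNT, nephronectin, lower by -1.24 (SE 0.09, adjusted p = 1.7e-19) in Mko-3 cells.

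Among 23 basement membrane partners and other laminin receptors, 18 were tested. None was called in Ako-3 by edgeR or DESeq2, although 6 were higher and 5 lower at an unadjusted p under 0.05. In Mko-3 cells 2 were called higher and 1 lower (3 and 1 by DESeq2, which added DAG1), and in Mko-3 against Ako-3 cells 3 higher and none lower. The medians were 0.06, 0.33 and 0.17. NID1, nidogen, which bridges laminin to collagen IV, was at 167 ± 6.21 FPKM in control cells (SD, n = 3) and rose by 0.25 in Ako-3 (SE 0.06, adjusted p = 1.2e-03) and 0.14 in Mko-3 cells (SE 0.06, adjusted p = 0.037). NID2, its paralogue, read 2.06, 2.44 and 2.30 FPKM in control, 1.36, 1.23 and 1.06 in Ako-3, and 5.07, 4.47 and 5.19 in Mko-3 libraries, with no overlap. It fell by 0.90 in Ako-3 (SE 0.13, adjusted p = 1.0e-05), rose by 1.10 in Mko-3 (SE 0.10, adjusted p = 1.0e-08), and differed by 2.00 between the clones (SE 0.10, adjusted p = 1.3e-28).

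HSPG2, perlecan, the heparan sulfate proteoglycan of basement membranes, followed the same order at a higher level, 19.2 ± 1.63 FPKM in control, 14.3 ± 1.36 in Ako-3 and 34.6 ± 2.58 in Mko-3 cells (SD, n = 3). The clones differed by 1.27 (SE 0.07, adjusted p = 3.9e-07). DAG1, dystroglycan, a laminin receptor that is no integrin, rose by 0.83 in Ako-3 (SE 0.08, adjusted p = 2.6e-08) and by 0.997 in Mko-3 cells (SE 0.07, adjusted p = 2.9e-10), just below the threshold of 1. DESeq2 put it at 1.01, RLE normalization, no filter, the fit of all 9 libraries and the replicate block also put it past 1, and it passed in 3 of the 6 fits that left out a library. COL4A1, a collagen IV chain, rose by 1.61 in Mko-3 cells (SE 0.27, adjusted p = 4.0e-05) from 0.110 ± 0.0525 FPKM in control cells. Of 7 tetraspanins that bind integrins, 6 were tested, with TSPAN8 called higher in Ako-3 at 1.38 (SE 0.06, adjusted p = 9.7e-13), none called in Mko-3 by edgeR or DESeq2 (5 higher and none lower at an unadjusted p under 0.05), and CD9 called higher between the clones at 1.10 (SE 0.09, adjusted p = 1.9e-18). The medians were 0.13, 0.39 and 0.16.

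The 5′ flanks of called members are shown for the 4 genes called in Mko-3 against control cells, ITGA5, ITGB6 and LAMA3 higher and ITGA2B lower. RefSeq's table (GRCh38.p14) gave windows for 26 of the 38 members and for 5 of the 6 called ones, ITGAL being the exception. Each line is read 5′ to 3′ on the gene's strand from the 250 bases before the RefSeq start, without the bases that the annotations used here place in the gene's exons. Capitals mark motif matches on either strand. The TATA box was searched as TATAAA, which 10.7% of all 35116 windows of this length held. The GC box was searched as GGGCGG, held by 42.6% of windows. The AP-1 motif was searched as TGANTCA, held by 6.57%. The E-box was searched as CACGTG, held by 6.34%.
ITGA5 (chr12:54419461-54419516, minus strand): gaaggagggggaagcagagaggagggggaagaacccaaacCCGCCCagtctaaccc
ITGB6 (chr2:160200314-160200522, minus strand): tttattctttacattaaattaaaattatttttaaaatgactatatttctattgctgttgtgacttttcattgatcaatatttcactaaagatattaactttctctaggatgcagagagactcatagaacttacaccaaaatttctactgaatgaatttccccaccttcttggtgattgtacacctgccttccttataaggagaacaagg
LAMA3 (chr18:23872770-23873019, plus strand): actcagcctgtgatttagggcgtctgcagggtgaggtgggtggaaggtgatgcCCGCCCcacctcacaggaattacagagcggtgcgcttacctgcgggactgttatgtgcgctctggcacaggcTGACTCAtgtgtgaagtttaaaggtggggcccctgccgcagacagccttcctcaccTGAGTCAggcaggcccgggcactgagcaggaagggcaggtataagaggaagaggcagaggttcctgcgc
ITGA2B (chr17:44389650-44389899, minus strand): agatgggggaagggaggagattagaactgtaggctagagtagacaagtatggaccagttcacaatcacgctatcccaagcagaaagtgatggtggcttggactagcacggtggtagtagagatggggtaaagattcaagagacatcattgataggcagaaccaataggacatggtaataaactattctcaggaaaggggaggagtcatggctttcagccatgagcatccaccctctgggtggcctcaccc

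The flanks of the 3 genes that rose did not look alike. That of ITGA5 held 62.5% G and C over 56 bases and 1 GC box, that of LAMA3 60.4% over 250 bases with 1 GC box and 2 AP-1 matches, and that of ITGB6 30.1% over 209 bases with no match. The ITGA2B flank held 48.8% and no match. The LAMA3 window lies before an internal start of the gene, whose longest form begins at chr18:23689443. These matches describe letters in a window and were not tied to the measurements.

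Overlapping genes limit a few values, since reads from a gene and an overlapping one on the other strand cannot be told apart without strand. In GENCODE release 44 (hg38), ITGB7 shared 42.3% of its exonic bases with ZNF740 and ITGA4 26.4% with CERKL on the opposite strand, and both integrins were almost silent. ITGAE shared 6.47% with HASPIN, LAMA5 1.71% with ADRM1 and LAMB1 1.61% with DLD. ITGA1 shared 2.69% with PELO on its own strand. ITGA9 shared 9.23% with the antisense ITGA9-AS1, whose 25 to 69 counts exceeded its own 9 to 24. ITGB3 shared 33.2% and ITGB6 16.7% with a same-strand gene that had no count in any library, and the antisense transcripts at ITGAL had at most 11 counts.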

How the data were processed

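Poly(A)-selected RNA from 9 Huh-7 libraries was sequenced in pairs. Per the labels and the study's methods, alignment used HISAT2 2.0.5 and hg38. The authors deposited raw counts per gene from featureCounts 1.5.0-p3 (strand setting not given in the sources used here) and FPKM made from these counts, the deposited gene length and 1 scaling constant per library. Levels were taken from the FPKM. Counts were tested with edgeR 4.0.16 (R 4.3.3; TMM, filterByExpr at 10 counts, robust quasi-likelihood, separate fits of 6 libraries), with Benjamini-Hochberg adjustment over all genes tested; SE is the log2 fold change over the root of F. The test was checked on simulated counts. Members, gene lists and tests were chosen with earlier results of these data known. Named with values in every library were called members and the highest of each class (3 alpha, 3 beta, 2 of each laminin chain), and up to 3 called genes per list; further members and list genes were named after their values were seen. Alternatives were DESeq2 1.42.0, RLE, other filters, 1 fit of all 9 libraries, a replicate block, limma 3.58.1 on log2(FPKM + 1) and log2(FPKM + 0.1), and leaving out each library. The values of 1 member are not reported here. No 2 libraries of a group agreed within sampling noise. For pairs of libraries, chi-square per degree of freedom over genes was 6.93 to 8.88 in control, 3.12 to 3.45 in Ako-3 and 2.43 to 2.84 in Mko-3 cells. The p-values between the clones thus come from libraries with less spread than those against control cells. The labels call the libraries biological replicates and name no batch.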

Additional observations from a re-analysis of the deposited data

Results flagged for a closer look

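For 15 of the 23 members tested in all 3 comparisons, the effect differed between the 2 clones by the direct edgeR test (Benjamini-Hochberg adjusted p at most 0.05). These 15 were also all that passed among the 25 members tested between the clones, against 41.6% of all 15528 genes tested there. All values are log2 fold changes of Mko-3 against Ako-3 cells, 3 libraries each. Higher in Mko-3 cells were ITGB6 by 1.31 (adjusted p = 2.2e-06), ITGB8 by 0.997 (1.6e-14), LAMA4 by 0.88 (0.013), ITGA5 by 0.88 (5.6e-30), ITGAV by 0.84 (3.5e-19), ITGA2 by 0.54 (1.2e-08), ITGA1 by 0.42 (4.5e-10), LAMA3 by 0.39 (0.041), LAMA5 by 0.36 (7.1e-11), LAMC1 by 0.24 (1.7e-07) and LAMB1 by 0.17 (2.0e-04). Lower were ITGAL at -1.13 (1.5e-21), ITGB4 at -0.56 (3.5e-03), ITGA7 at -0.42 (5.7e-03) and LAMB2 at -0.31 (8.9e-09). Each clone is a single one, so the knocked-out gene and the clone cannot be told apart.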

How the results depend on the processing

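Against control cells, edgeR called 2 members in Ako-3 and 4 in Mko-3 cells, and 2 between the clones, and DESeq2 and RLE normalization gave these counts too. With 10 counts required in every library 1 was called in Ako-3 cells, since ITGA2B was no longer tested, and with no filter 4 were called between the clones. On log2(FPKM + 1), limma called 0 in Ako-3 cells, 1 in Mko-3 cells (ITGA5) and 0 between the clones, with 15, 14 and 13 at an unadjusted p under 0.05. On log2(FPKM + 0.1) it called 0 in Ako-3 cells, with 15 at an unadjusted p under 0.05. For limma too, the share of all genes at that unadjusted p was not counted. The pseudocount by its construction shrinks the fold change of low genes. When any 1 library was omitted, the called members numbered 2 to 2 in Ako-3, 4 to 6 in Mko-3 cells and 3 to 4 between the clones. The count of 4 between the clones came without Ako-3 replicate 1, 2 or 3 or Mko-3 replicate 1. ITGB8 lay just past the threshold without Ako-3 replicate 1 (1.02), Ako-3 replicate 2 (1.01) or Mko-3 replicate 1 (1.01). ITGAM, with too few counts for the main fit between the clones, was called without Ako-3 replicate 3 or Mko-3 replicate 1. The cause was not tested. The replicate numbers did not pair the libraries: the deviations of same-numbered libraries correlated at -0.07 to 0.06, and a fit with the replicate block called 2, 4 and 2 members. Few counts limit ITGA2B, ITGB2 and the members not tested.

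Of the members' 76 tested log2 fold changes, 14 changed sign without 1 library, none of them past the adjusted p, and the cause was not tested. The widest such range was that of ITGAX in Mko-3 against control cells, -0.0661 to 1.04. With 10 counts in every library PTK2 in Ako-3 cells was at -0.00467 and ITGA7 in Mko-3 cells at -0.00996, and ITGA7 was at -0.00797 with the replicate block. Of the values printed above, without 1 library LAMC1 ranged from -0.0504 to 0.0120, FN1 from -0.122 to 0.0510 and PTK2 from -0.0255 to 0.0445 in Ako-3 cells, and ITGA7 from -0.124 to 0.0861 and LAMB3 from -0.0709 to 0.239 in Mko-3 cells. Shares from raw counts, which favour longer genes, moved by more than the spread between libraries: in control, Ako-3 and Mko-3 cells they were 82.4%, 80.9% and 80.0% for ITGB1, 23.2%, 20.8% and 14.7% for ITGA6, and 59.8%, 55.6% and 63.2% for LAMB1. That of ITGB5 was 17.1% in either clone, that of ITGAV 35.1% in control and 32.7% in Mko-3 cells, and that of ITGA5 19.5% and 33.5%.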
